A study of Mus musculus with 27 samples.

Results

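The complement system was described here through 9 genes that encode its parts and its receptors, across the nuclei classes and genotypes of the mouse hippocampus. The genes were taken by symbol, by a rule that sets no threshold on their measured values: C1qa, C1qb, C1qc, C4b and C3 (components), Serping1 (an inhibitor), and C3ar1, C5ar1 and Itgam (receptors). All 9 were among the 31053 genes of the deposited matrices, and together they held 69714 of the 1158950166 unique molecular identifiers (UMIs, each a counted RNA molecule) in the nuclei that were kept.

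Single-nucleus RNA sequencing (snRNA-seq) was done on the hippocampi of 27 mice aged 8 to 9 months, 1 library per mouse, in 6 genotype groups that combined a tau transgene with the number of functional Cgas copies. P301S mice express human tau with the P301S mutation from the mouse Prnp promoter, and they develop tau aggregates. Cgas encodes cGAS, a sensor of DNA in the cytosol that drives type I interferon. The question put to these genes was whether they differed with the tau transgene and, within P301S mice, with the loss of Cgas. Without the transgene there were 5 Cgas+/+ mice (3 male, 2 female), 2 Cgas+/- mice (both male) and 2 Cgas-/- mice (both male). With it there were 6 P301S Cgas+/+, 6 P301S Cgas+/- and 6 P301S Cgas-/- mice, each with 3 males and 3 females. Nuclei came from frozen tissue and were sorted on a DNA dye, so RNA of the cytoplasm was largely not sampled. Replicate numbers follow the order of deposit and do not pair mice.

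Complement is a cascade of proteins that tag material for removal and signal to immune cells. In the classical pathway, C1q binds its target and leads to cleavage of C4 and then of C3, while the C1 inhibitor, the product of Serping1, holds the first step back. Fragments of C3 on the target are read by complement receptor 3, whose alpha chain is encoded by Itgam, and the released fragments C3a and C5a are read by C3ar1 and C5ar1. In the brain, microglia are the known main source of C1q, reactive astrocytes are known for C3, and C1q and C3 are known for their part in the removal of synapses by microglia.

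Promoters show which of the members carry short motifs of immune and myeloid transcription factors at their start sites. RefSeq promoters of build GRCm38.p6, 250 bases before and 50 after a start, were found for 6 of the 9 members (C1qb, C1qc, C3ar1, C5ar1, Itgam and C3). The 4 shown belong to the members that the results below turn on. Each lies on the minus strand and is written in the direction of its gene, with motif matches in capitals.
C1qb chr4:136886151-136886450: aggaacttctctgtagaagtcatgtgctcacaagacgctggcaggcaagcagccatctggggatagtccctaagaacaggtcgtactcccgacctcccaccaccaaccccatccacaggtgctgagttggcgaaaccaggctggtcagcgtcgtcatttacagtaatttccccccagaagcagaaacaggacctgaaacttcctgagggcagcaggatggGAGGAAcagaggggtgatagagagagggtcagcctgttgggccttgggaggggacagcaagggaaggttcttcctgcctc
C1qc chr4:136892865-136893164: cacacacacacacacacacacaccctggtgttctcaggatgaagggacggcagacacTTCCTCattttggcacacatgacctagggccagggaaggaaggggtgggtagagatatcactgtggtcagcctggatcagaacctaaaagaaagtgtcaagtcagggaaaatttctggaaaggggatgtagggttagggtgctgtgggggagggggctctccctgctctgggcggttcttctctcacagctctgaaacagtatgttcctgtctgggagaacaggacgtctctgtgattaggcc
C3ar1 chr6:122856108-122856407: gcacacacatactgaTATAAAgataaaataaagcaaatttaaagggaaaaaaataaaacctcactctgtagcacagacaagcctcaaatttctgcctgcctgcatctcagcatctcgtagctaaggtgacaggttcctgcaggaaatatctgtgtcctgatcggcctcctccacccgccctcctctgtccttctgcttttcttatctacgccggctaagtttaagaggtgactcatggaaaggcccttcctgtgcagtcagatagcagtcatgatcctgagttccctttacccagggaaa
C3 chr17:57228087-57228386: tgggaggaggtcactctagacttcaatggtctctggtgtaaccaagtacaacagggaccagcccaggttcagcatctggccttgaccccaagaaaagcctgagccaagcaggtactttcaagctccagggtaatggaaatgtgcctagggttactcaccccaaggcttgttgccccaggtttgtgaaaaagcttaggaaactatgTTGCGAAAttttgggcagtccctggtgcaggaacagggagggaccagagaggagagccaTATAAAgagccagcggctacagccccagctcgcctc

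Motifs were searched on both strands, and positions were counted from the start site. The core of the myeloid factor PU.1, GAGGAA, was matched at -30 to -25 in the C1qb promoter and, on the opposite strand, at -193 to -188 in the C1qc promoter. Of 32851 promoters of this length, 28.3% held it. The C/EBP core, TTGCNNAA, was matched in the C3 promoter at -45 to -38 and is in 10.8% of promoters. A TATA box, TATAAA, was matched at 15 to 20 in the C3 promoter and at -235 to -230 in the C3ar1 promoter, and 13.6% of promoters hold one. No letters of the interferon-stimulated response element core (in 3.44% of promoters), of the STAT-binding GAS element (TTCNNNGAA, in 8.3%) or of the NF-kB site (in 1.47%) were found in these windows of the 6 members. The C5ar1 window held none of the 6 motifs, and that of Itgam held 3 PU.1 cores. The matches are a description of letters, not of bound sites.

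By the GENCODE vM21 annotation of GRCm38, the 3 C1q genes lie side by side on the minus strand of chromosome 4, C1qb at 136880129 to 136886187, C1qc at 136889804 to 136893065 and C1qa at 136895917 to 136898803. C4b (chromosome 17, 34728380 to 34743882) has a near copy, C4a (17, 34809092 to 34823464), that was not among the counted genes. Of the 5290 windows of 90 bases in the longest C4b transcript, 18.9% occur whole in a C4a transcript, so C4b reads may include some from C4a or may have been lost to it. Itgam (chromosome 7, 128062640 to 128118491) lies under Gm49368 on the same strand for 99.9% of its length, and reads that fit both genes are usually not assigned. Itgam had 2 UMIs in all kept nuclei, and Gm49368 had 204. Itgam could therefore not be measured in these files, and its absence from the results says nothing of its expression.

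Of 241938 deposited barcodes, 204852 were kept after limits on genes and mitochondrial reads and removal of predicted doublets, 5840 to 12572 per library, with 31372433 to 58233360 UMIs per library in them. Between any pair of libraries at most 0.57% of barcodes were shared. Clusters were given a class name from marker genes, and 14 classes were found. The 5 that were tested held 11393 microglia-like, 26818 astrocyte-like, 45623 oligodendrocyte-like, 76423 excitatory neuron-like and 11479 inhibitory neuron-like nuclei. Unnamed clusters held 7.24% of nuclei, but 51.5% of those of P301S Cgas+/+ replicate 3, against 1.51% to 13.7% in the other libraries, and that library also had the lowest median UMIs per barcode (2225). Values without it are given beside many of the results. Cgas transcripts followed the labels only in part in mice without P301S. They did not follow them in P301S mice, where the median in microglia-like nuclei was highest in those labelled Cgas-/-. Their level in microglia-like nuclei was 32.2 to 39.0 UMIs scaled to 1000000 UMIs of the class (CPM) in mice labelled Cgas+/+, lower at 15.8 and 22.4 in those labelled Cgas+/-, 21.6 and 33.1 in those labelled Cgas-/-, 26.3 to 56.5 in those labelled P301S Cgas+/+, 28.2 to 59.5 in those labelled P301S Cgas+/-, and 40.2 to 58.5 in those labelled P301S Cgas-/-. A 3′ tag outside the deleted part of a gene cannot check a deletion, and where the deletion lies is not given in the sources used here, so genotypes below are as labelled.

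The members fell into 3 patterns across classes. The C1q chains, C3ar1 and C5ar1 were highest in microglia-like nuclei. C4b was highest in astrocyte-like and oligodendrocyte-like nuclei. Serping1 and C3 were low in most classes, with the highest level of Serping1 in fibroblast-like and that of C3 in ependymal-like nuclei, and astrocyte-like nuclei supplied 40.5% of Serping1 and 66.3% of C3 UMIs. Levels of a class are UMIs summed per mouse and given as CPM, so for each gene fewer positive nuclei and less RNA per nucleus cannot be told apart in them.

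**Figure D1:**
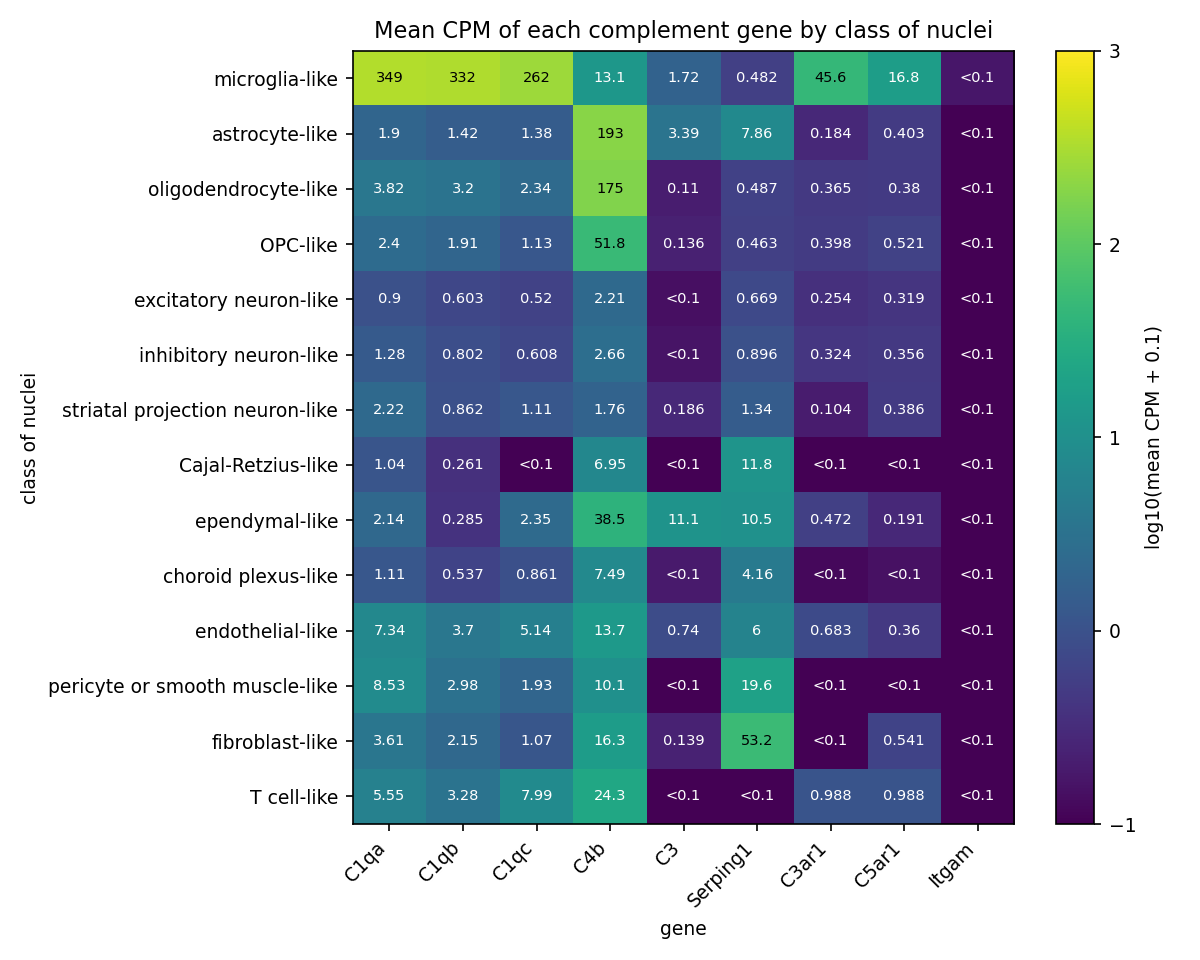
Mean CPM (over libraries) of the 9 members in the 14 marker-named nuclei classes, with color on a log10(mean CPM + 0.1) scale and the mean written in each cell. Microglia-like nuclei carried the C1q chains at 262 to 349 CPM, and C4b reached 193 in astrocyte-like and 175 in oligodendrocyte-like nuclei.

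C1qa averaged 349 ± 119 CPM (SD, n = 27) in microglia-like nuclei, C1qb 332 ± 82.1 CPM and C1qc 262 ± 69.4 CPM. The next class was at 8.53 CPM for C1qa (pericyte or smooth muscle-like), 3.70 for C1qb (endothelial-like) and 7.99 for C1qc (T cell-like). Those values rest on 11, 11 and 2 UMIs. C1qa was higher in microglia-like nuclei than in pericyte-like nuclei in 26 of 26 libraries that held both. C3ar1 averaged 45.6 ± 20.4 CPM and C5ar1 16.8 ± 6.39 CPM in microglia-like nuclei. The next class for each (T cell-like) was at 0.988 CPM, which rests on 1 UMI. Microglia-like nuclei supplied 80.5% of C1qa, 84.1% of C1qb, 83.3% of C1qc and 75.9% of C3ar1 UMIs, but 46.4% of C5ar1 UMIs, where excitatory neuron-like nuclei, far more numerous, supplied 30.3%.

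C4b, the mouse C4 gene, averaged 193 ± 109 CPM in astrocyte-like and 175 ± 181 CPM in oligodendrocyte-like nuclei (SD, n = 27). The mean difference of 17.4 ± 94.5 CPM was smaller than its spread, and astrocyte-like nuclei were the higher in 18 of 27 libraries. Oligodendrocyte-like nuclei exceeded oligodendrocyte precursor (OPC)-like nuclei, at 51.8 ± 45.4 CPM, in 27 of 27 libraries. Excitatory neuron-like nuclei were at 2.21 CPM. Astrocyte-like and oligodendrocyte-like nuclei supplied 42.8% and 46.1% of C4b UMIs.

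Serping1 was at 53.2 ± 40.5 CPM in fibroblast-like (n = 23), 19.6 ± 19.0 CPM in pericyte-like (n = 26) and 7.86 ± 8.26 CPM in astrocyte-like nuclei (n = 27). The order of the first pair was within the spread, with a difference of 34.2 ± 38.2 CPM. Own markers held at least as many UMIs as any other class's list in 42.6% of fibroblast-like and 43.0% of pericyte-like nuclei. In astrocyte-like nuclei they did so in 99.85%. Of the fibroblast-like nuclei, 38.7% came from 1 library. C3 was at 11.1 ± 11.6 CPM in ependymal-like (n = 24), 3.39 ± 5.54 CPM in astrocyte-like and 1.72 ± 2.41 CPM in microglia-like nuclei (n = 27). The ependymal-like and astrocyte-like levels also did not differ beyond their spread (7.71 ± 10.5 CPM). Only 499 UMIs of C3 were counted in all kept nuclei.

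For each class, 5 comparisons were fitted with edgeR's quasi-likelihood test on the UMIs of each class, with sex as a covariate and p-values adjusted over all genes tested. The tau comparison set P301S Cgas+/+ against Cgas+/+ mice. The deletion and heterozygous comparisons set P301S Cgas-/- and P301S Cgas+/- against P301S Cgas+/+ mice. The P301S comparison set the mean of the 3 P301S groups against the mean of the 3 groups without P301S. Groups had equal weight in it, so the 2 Cgas+/- and 2 Cgas-/- mice counted for more than their number. These mice were all male, with software version 3.0.2 in their file headers, whereas P301S mice were of both sexes and versions. Version was a covariate only in an alternative fit. The interaction asked whether the effect of deletion differed between mice with and without P301S. The tau, deletion and heterozygous comparisons share the P301S Cgas+/+ mice, and the tau and P301S comparisons share mice on both sides. A gene was called where its adjusted p was under 0.05. Standard errors of edgeR differences were derived from each difference and the F statistic of its test. They can be unstable where a difference is near 0.

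In the P301S comparison, C3ar1 rose in microglia-like nuclei, Serping1 rose in astrocyte-like nuclei and the 3 C1q chains rose in excitatory neuron-like nuclei, where their level was near 1 CPM. No member was called in oligodendrocyte-like or inhibitory neuron-like nuclei, though C4b there had a fitted difference of 2.51 and 1.45 on the log2 scale. No member was called in any class for the tau, deletion or heterozygous comparisons or the interaction.

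Among the members that passed the filter on low counts, 1 of 6 was called in microglia-like nuclei in the P301S comparison, where 11.5% of all genes tested were called, so that count is near the background. In astrocyte-like nuclei 1 of 6 was called against 2.27% of all genes, and in excitatory neuron-like nuclei 3 of 7 against 2.25%. The count was 0 of 4 in oligodendrocyte-like nuclei (0.00769% of all genes, with 3 members at an unadjusted p under 0.05, as were 13.2% of all genes) and 0 of 2 in inhibitory neuron-like nuclei (0.0761%, with 2 such members, as were 7.46% of all genes). DESeq2 called 2 members in microglia-like (C1qa and C3ar1, background 12.8%), 3 in astrocyte-like (C3, C4b and Serping1, 5.16%), 1 in oligodendrocyte-like (C4b, 1.48%) and 3 in excitatory neuron-like nuclei (the C1q chains, 6.32%), and 0 in inhibitory neuron-like nuclei. The median log2 difference over the tested members was 0.43 in microglia-like, 0.93 in astrocyte-like, 1.37 in oligodendrocyte-like, 0.75 in excitatory neuron-like nuclei and 1.58 in those of the inhibitory neuron-like class, beside medians over all genes between 0.00 and 0.01.

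In the tau comparison edgeR called 0 of 6 members in microglia-like nuclei (0.0% of all genes, with 1 member at an unadjusted p under 0.05), 0 of 4 in astrocyte-like (0.00759%, 3 members), 0 of 4 in oligodendrocyte-like (0.00795%, 4 members), 0 of 6 in excitatory neuron-like (0.0235%, 3 members) and 0 of 1 in inhibitory neuron-like nuclei (0.00793%, 1 member). Over all genes, the share at an unadjusted p under 0.05 was 15.5%, 11.3%, 6.78%, 2.52% and 2.63% in these 5 classes. With this few genes called in all, a member that was not called is not shown to be unaltered. DESeq2 called Serping1 in astrocyte-like nuclei (background 1.18%) and C1qa in excitatory neuron-like nuclei (0.0765%), and no other member in the 5 classes.

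In the deletion comparison edgeR and DESeq2 called 0 members in each of the 5 classes, and edgeR gave 0 members an unadjusted p under 0.05, where 2.52% to 6.29% of all genes had one in 4 classes and 2385 of 16997 did in excitatory neuron-like nuclei. Of all genes edgeR called 0.0% in microglia-like, astrocyte-like, oligodendrocyte-like and excitatory neuron-like nuclei and 0.0159% in inhibitory neuron-like nuclei. The heterozygous comparison also gave 0 members by both tools. Its edgeR backgrounds were the same (0.0% and 0.0159%), and 1 member, C1qa in excitatory neuron-like nuclei, was at an unadjusted edgeR p under 0.05, as were 12.1% of all genes there. For the interaction both tools again called 0 members. The edgeR backgrounds were 0.0% in the microglia-like class, 0.0% in both the astrocyte-like and the oligodendrocyte-like class, 0.651% for excitatory neuron-like and 0.00761% for inhibitory neuron-like nuclei. The share of all genes that DESeq2 called is given only where it called a member, so its counts of 0 have no background beside them. Serping1 in excitatory neuron-like nuclei was the 1 member at an unadjusted p under 0.05 (0.0274), with a log2 difference of -1.88 ± 0.80 (SE) and an adjusted p of 0.184 by edgeR, where 20.1% of all genes in that class had an unadjusted p under 0.05.

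**Figure D2:**
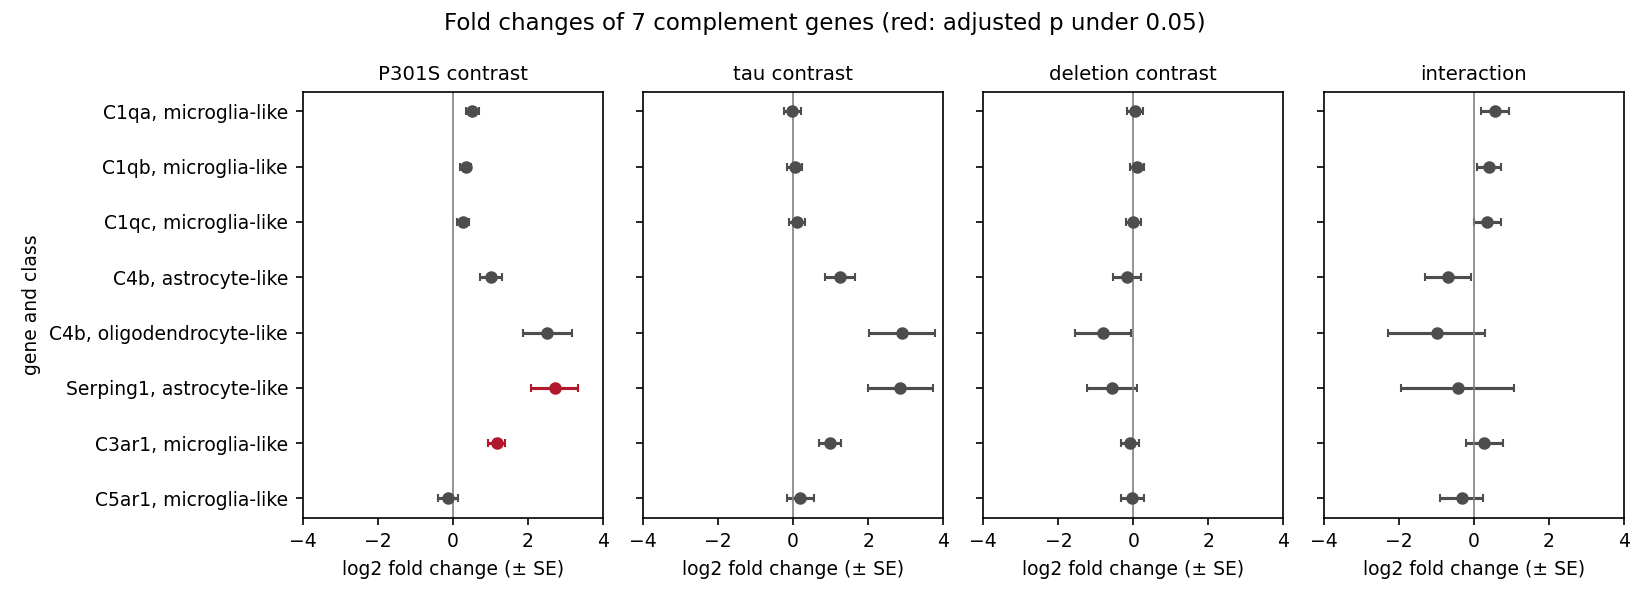
Fitted log2 differences (edgeR, error bars are standard errors) of 8 member and class pairs in the P301S, tau, deletion and interaction comparisons, with pairs of adjusted p under 0.05 in red. Only C3ar1 in microglia-like nuclei (1.17) and Serping1 in astrocyte-like nuclei (2.71), both in the P301S comparison, are red among these pairs. The deletion estimates of the C1q chains lie within 0.10 of 0, with standard errors of 0.18 to 0.21.

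C4b in oligodendrocyte-like nuclei, the cells that make myelin, had the widest range of any member in absolute CPM, though not as a ratio of highest to lowest. The 5 Cgas+/+ mice were at 46.6, 74.0, 49.4, 21.6 and 19.2 CPM, the Cgas+/- mice at 43.1 and 41.6 CPM and the Cgas-/- mice at 66.9 and 49.0 CPM. P301S Cgas+/+ mice ranged from 34.9 to 549 CPM (median 298). P301S Cgas+/- mice ranged from 19.5 to 571 CPM (median 169), and P301S Cgas-/- mice from 60.0 to 392 CPM (median 143). Of the 18 P301S mice, 13 lay above the highest mouse without P301S (4 of 6, 4 of 6 and 5 of 6 in the 3 groups), and the lowest P301S mice lay among the controls.

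The fitted log2 difference of C4b in oligodendrocyte-like nuclei was 2.51 ± 0.66 (SE) in the P301S comparison (edgeR adjusted p = 0.118) and 2.91 ± 0.88 in the tau comparison (adjusted p = 0.696), and neither passed. Without P301S Cgas+/+ replicate 3, which was at 549 CPM, the differences were 2.44 and 2.52. The deletion comparison gave -0.81 ± 0.75 (adjusted p = 1.0) and the heterozygous comparison -0.43 ± 0.73, both about the size of their errors. Among mice whose file header names software version 3.0.2, the 6 P301S mice averaged 228 ± 159 CPM and the 6 others 53.5 ± 13.6 CPM. Among those with version 3.1.0, the 12 P301S mice averaged 245 ± 211 CPM and the 3 others 30.1 ± 16.8 CPM.

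Shares of oligodendrocyte-like nuclei with a C4b UMI overlapped between groups, and no difference in them passed after adjustment. After each nucleus was thinned to 1000 UMIs, 3.77% ± 2.10 (SD, n = 5) of nuclei had a C4b UMI in Cgas+/+ mice and 20.7% ± 15.1 (n = 6) in P301S Cgas+/+ mice, with 16.4% ± 14.3 and 14.6% ± 9.44 in P301S Cgas+/- and P301S Cgas-/- mice. In excitatory neuron-like nuclei, where C4b was near absent, 0.0543% to 0.270% of nuclei had one. Unthinned, the shares were 2.83% to 11.1% (median 5.80%) in Cgas+/+ and 4.75% to 64.9% (median 35.5%) in P301S Cgas+/+ mice, and 1.26% to 2.70% in excitatory neuron-like nuclei, whose median depth was 8508 to 9335 UMIs against 1598 to 2084. The part of free RNA in these shares was not tested. The tau difference of 16.9 percentage points had p = 0.0433 by a two-sided exact permutation test and an adjusted p of 0.242 over 12 such tests. Its unadjusted p was no longer under 0.05 in 8 of the 11 fits that left out 1 mouse (13.8 to 20.4 points). The deletion difference was -6.15 points (exact permutation p = 0.396). Unthinned, 22 of 6532 nuclei of Cgas+/+ mice and 918 of 12319 of P301S Cgas+/+ mice held 3 or more C4b UMIs, up to 5 and 11 UMIs in a nucleus, where median depths were 1709 and 1937 UMIs per nucleus. This pooled count was not tested.

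In astrocyte-like nuclei C4b was well above 0 in every mouse. The Cgas+/+ mice were at 119, 114, 93.0, 74.8 and 87.6 CPM, the Cgas+/- mice at 103 and 127 CPM and the Cgas-/- mice at 155 and 142 CPM. P301S Cgas+/+ mice ranged from 129.8 to 377 CPM (median 212), P301S Cgas+/- mice from 59.6 to 441 CPM (median 222) and P301S Cgas-/- mice from 135 to 288 CPM (median 230.0). All 6 P301S Cgas+/+ mice lay above all 5 Cgas+/+ mice, and 11 of 18 P301S mice lay above every mouse without P301S. The log2 difference was 1.02 ± 0.29 (SE) in the P301S comparison (edgeR adjusted p = 0.0642) and 1.26 ± 0.40 in the tau comparison (adjusted p = 0.277), and 0.99 and 1.12 without P301S Cgas+/+ replicate 3. The P301S difference was called in 3 of the 27 fits that left out 1 library, those without P301S Cgas+/- replicate 1 or 6 or P301S Cgas+/+ replicate 2 (1.04 to 1.10). Deletion gave -0.17 ± 0.37. The share of astrocyte-like nuclei with a C4b UMI after thinning was 8.89% ± 2.07 in Cgas+/+ and 18.5% ± 6.83 in P301S Cgas+/+ mice (exact permutation p = 0.0130, adjusted p = 0.156). Summed oligodendrocyte markers in these nuclei, given with Serping1 below, had a higher median in P301S Cgas+/+ than in Cgas+/+ mice. Their part in the C4b values was not tested.

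OPC-like nuclei showed higher C4b in P301S mice too, and their levels were not compared between groups by a test. The Cgas+/+ mice were at 7.18, 6.54, 3.96, 11.8 and 6.87 CPM, the Cgas+/- mice at 10.5 and 12.3 CPM and the Cgas-/- mice at 17.4 and 15.8 CPM. The 3 P301S groups had medians of 63.7, 70.2 and 78.1 CPM and spanned 11.3 to 149.9 CPM. Of the 18 P301S mice, 17 were above every mouse without P301S. The mean was 76.0 ± 55.7 CPM in P301S Cgas+/+ mice, or 64.7 ± 54.0 CPM (median 42.3) without replicate 3, and 73.8 ± 29.7 CPM in P301S Cgas-/- mice.

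**Figure D3:**
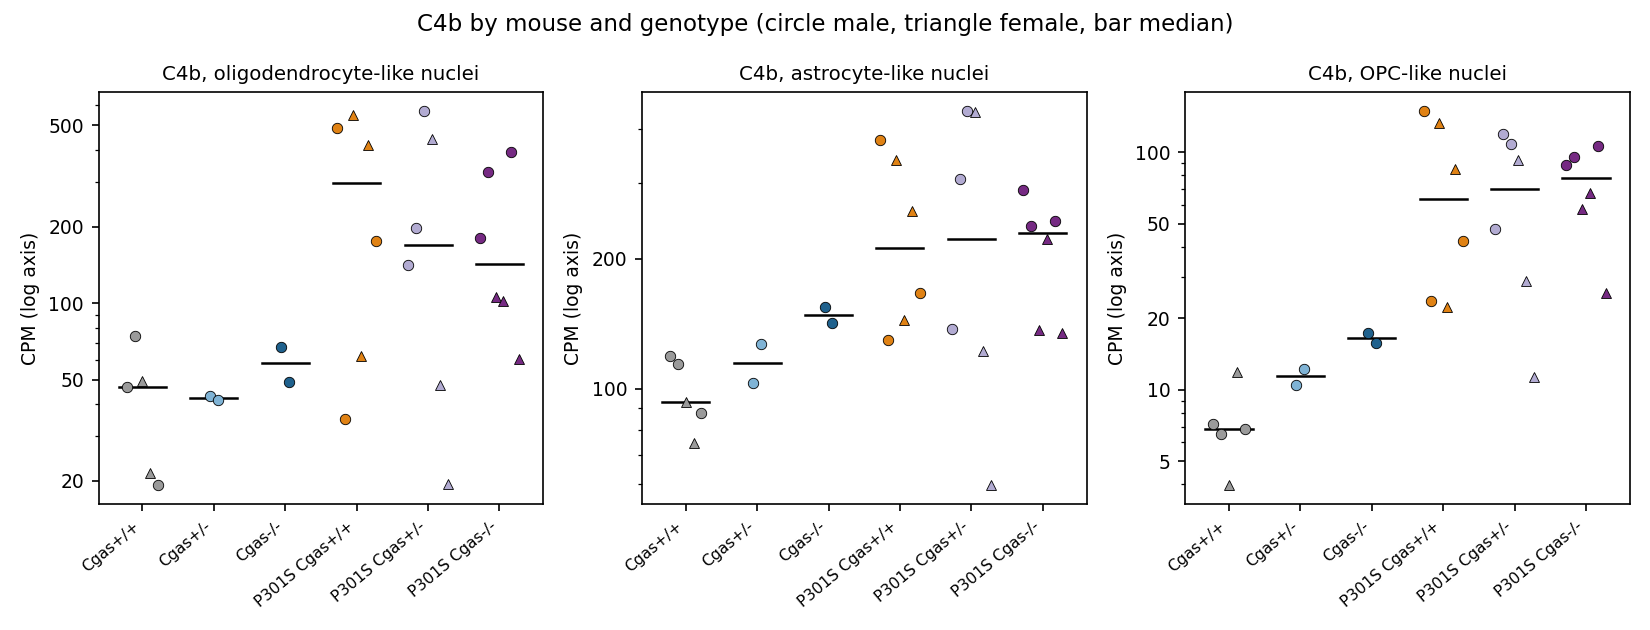
C4b in CPM (log axis) by mouse in oligodendrocyte-like, astrocyte-like and OPC-like nuclei for the 6 genotype groups, with circles for males, triangles for females and bars at the median. In OPC-like nuclei 17 of 18 P301S mice lie above all 9 mice without P301S, in oligodendrocyte-like nuclei 13 do and in astrocyte-like nuclei 11 do, and the 3 P301S groups overlap in each class.

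Ependymal-like nuclei carried C4b at 38.5 ± 56.9 CPM (SD, n = 24), up to 30.5 CPM in the 9 mice without P301S and up to 270.4 CPM in P301S mice, of which 9 of 15 lay above the others. Only 98 UMIs lie behind these values, and no test was made. In microglia-like nuclei the Cgas+/+ mice were at 14.1, 7.31, 2.34, 0 and 11.2 CPM, and the P301S groups had medians of 14.7, 9.12 and 15.6 CPM with ranges that overlapped them. The log2 difference there was 1.19 ± 0.55 (SE) in the P301S comparison (edgeR adjusted p = 0.174). With no filter on low counts it was 1.24 and called, and C4b was called in the tau comparison of this class too, where 800 of 21542 genes were. The difference was 1.45 ± 0.58 (adjusted p = 0.538) in the P301S comparison and 1.72 ± 0.71 (adjusted p = 1.0) in the tau comparison for nuclei of the inhibitory neuron-like class. Neither passed, and without P301S Cgas+/+ replicate 3 they were 1.41 and 1.42. Summed oligodendrocyte markers in microglia-like nuclei, given as a measure of other cells' RNA, were 272 to 561 CPM (median 353) in Cgas+/+ and 310 to 680 CPM (median 660.1) in P301S Cgas+/+ mice. In the inhibitory neuron-like class they were 65.8 to 139 CPM (median 76.6) and 58.4 to 239 CPM (median 145), so that the medians were higher in P301S Cgas+/+ mice in both classes, as C4b was. Their part in the C4b values there was not tested.

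C3, the component on which all pathways converge, was at or near 0 in astrocyte-like nuclei of mice without P301S. The Cgas+/+ mice were at 0, 1.02, 0.750, 0 and 0.863 CPM, both Cgas+/- mice were at 0 and the Cgas-/- mice were at 0 and 0.309 CPM. P301S Cgas+/+ mice ranged from 0.228 to 13.2 CPM (median 5.20), P301S Cgas+/- mice from 0 to 21.2 CPM (median 1.29) and P301S Cgas-/- mice from 0 to 14.7 CPM (median 0.341). A few mice in each P301S group carried most of the UMIs, 105, 110 and 106 in the 3 groups, and 10 of the 18 mice lay above every mouse without P301S. Pooled over mice, C3 was at 5.18 CPM in P301S mice (321 UMIs) and 0.313 CPM in the others (10 UMIs). The fitted log2 difference in the tau comparison was 3.47 ± 1.47 (SE, edgeR adjusted p = 0.371), and without P301S Cgas+/+ replicate 3 it was 3.03. In the P301S comparison the adjusted p was 0.0503. The fitted value of 5.33 there depends on the count that the fit adds to groups at 0 and is not a bound, and C3 was called in 7 of the 27 fits that left out 1 library (5.26 to 5.55), among them the fit without that replicate. The others were without P301S Cgas+/+ replicate 2, P301S Cgas+/- replicate 1, 5 or 6 and P301S Cgas-/- replicate 1 or 4. Deletion gave -0.68 ± 1.03.

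In microglia-like nuclei C3 was at 0 UMIs of 4459233 in the 9 mice without P301S, which allows up to 0.673 CPM by 3 counts over the pooled mice. The 18 P301S mice held 47 UMIs (20, 13 and 14 in the 3 groups), a pooled 3.07 CPM, and 13 of them had at least 1. This is at least 4.56-fold higher than the limit, or 4.13-fold with the 40 UMIs left without P301S Cgas+/+ replicate 3. The medians of the P301S groups were 2.33, 2.53 and 1.78 CPM and their ranges overlapped. C3 did not pass the filter on low counts in this class, so its level was not fitted with the filter. With no filter C3 was called in the P301S comparison, where 1711 of 21802 genes were, and not in the tau comparison. That call rests on the same 47 UMIs against 0, so it adds nothing to the pooled count. The share of nuclei with a C3 UMI after thinning was 0% in Cgas+/+ and 0.190% in P301S Cgas+/+ mice (exact permutation p = 0.0606, adjusted p = 0.242 over the 12 tests of shares), which did not pass. Intervals and limits cover counting error only.

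Serping1, the C1 inhibitor, rose in astrocyte-like nuclei of P301S mice. The Cgas+/+ mice were at 1.59, 3.39, 1.12, 0.885 and 1.73 CPM, the Cgas+/- mice at 1.55 and 1.75 CPM and the Cgas-/- mice at 1.54 and 1.85 CPM. P301S Cgas+/+ mice ranged from 2.51 to 23.9 CPM (median 11.6), P301S Cgas+/- mice from 0.301 to 27.6 CPM (median 9.90) and P301S Cgas-/- mice from 1.43 to 20.03 CPM (median 5.83). Of the 18 P301S mice, 13 lay above the highest mouse without P301S, at 3.39 CPM.

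The log2 difference of Serping1 in astrocyte-like nuclei was 2.71 ± 0.63 (SE) in the P301S comparison (edgeR adjusted p = 0.0312). It was 2.68 and still called without P301S Cgas+/+ replicate 3. The call was lost when P301S Cgas+/- replicate 3, P301S Cgas-/- replicate 2 or 5, or any 1 of the 4 Cgas+/- and Cgas-/- mice was left out, with differences between 2.50 and 2.88 over all 27 such fits. It was also lost with the software version as a covariate (2.55) and with no filter on low counts (2.71). Within version 3.0.2 the 6 P301S mice averaged 9.61 ± 5.01 CPM and the 6 others 1.95 ± 0.717 CPM, and within version 3.1.0 the 12 P301S mice averaged 11.6 ± 10.1 CPM and the 3 others 1.25 ± 0.433 CPM. The tau difference was 2.86 ± 0.86 (adjusted p = 0.258), and deletion gave -0.56 ± 0.66. Summed oligodendrocyte markers in astrocyte-like nuclei were 115 to 226 CPM in Cgas+/+ and 117 to 310 CPM in P301S Cgas+/+ mice, with medians of 147 and 263 CPM, and their part in the result was not tested. In excitatory neuron-like nuclei, with 24.0% of Serping1 UMIs, the P301S difference was -0.78 (adjusted p = 0.268).

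C3ar1, the receptor for C3a, rose in microglia-like nuclei of P301S mice, and its call was the firmest of the members. The Cgas+/+ mice were at 18.8, 34.1, 25.8, 38.1 and 29.9 CPM, the Cgas+/- mice at 22.4 and 22.1 CPM and the Cgas-/- mice at 23.3 and 19.9 CPM. P301S Cgas+/+ mice ranged from 22.0 to 96.7 CPM (median 61.5), P301S Cgas+/- mice from 42.7 to 73.7 CPM (median 50.9) and P301S Cgas-/- mice from 31.8 to 69.5 CPM (median 54.3). All 6 P301S Cgas+/- mice and 15 of 18 P301S mice in all lay above every mouse without P301S.

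The log2 difference of C3ar1 was 1.17 ± 0.23 (SE) in the P301S comparison (edgeR adjusted p = 0.00266). It stayed called in all 27 fits that left out 1 library (1.12 to 1.27), among them the fit without P301S Cgas+/+ replicate 3 (1.16). Within version 3.0.2 the P301S mice averaged 52.7 ± 17.1 CPM and the others 23.4 ± 5.50 CPM, and within version 3.1.0 they averaged 56.6 ± 18.6 and 31.2 ± 6.27 CPM. The tau difference was 0.98 ± 0.30 (adjusted p = 0.121), and 0.82 without that replicate. It was called without P301S Cgas+/+ replicate 2 (1.16) and with no filter on low counts (1.04). Deletion gave -0.08 ± 0.24 and heterozygosity -0.09 ± 0.24. A change of 1 on the log2 scale in either lay over 3 of these derived standard errors from the fitted values. Summed microglia markers in microglia-like nuclei were 11750 to 13771 CPM in Cgas+/+ and 7905 to 13068 CPM in P301S Cgas+/+ mice, and border macrophage markers were 46.9 to 394 and 0 to 110 CPM. Their part in the result was not tested.

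C5ar1, the receptor for C5a, showed no such rise. The Cgas+/+ mice were at 9.41, 17.1, 11.7, 20.5 and 16.8 CPM, the Cgas+/- mice at 33.6 and 12.6 CPM and the Cgas-/- mice at 17.2 and 18.2 CPM. The P301S groups had medians of 16.2, 12.6 and 17.8 CPM and overlapped the others. The P301S difference was -0.13 ± 0.27 (SE, edgeR adjusted p = 0.83) and the tau difference 0.19 ± 0.36, or -0.11 and 0.20 without P301S Cgas+/+ replicate 3. Whether C3ar1 and C5ar1 differed in their response was not tested.

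**Figure D4:**
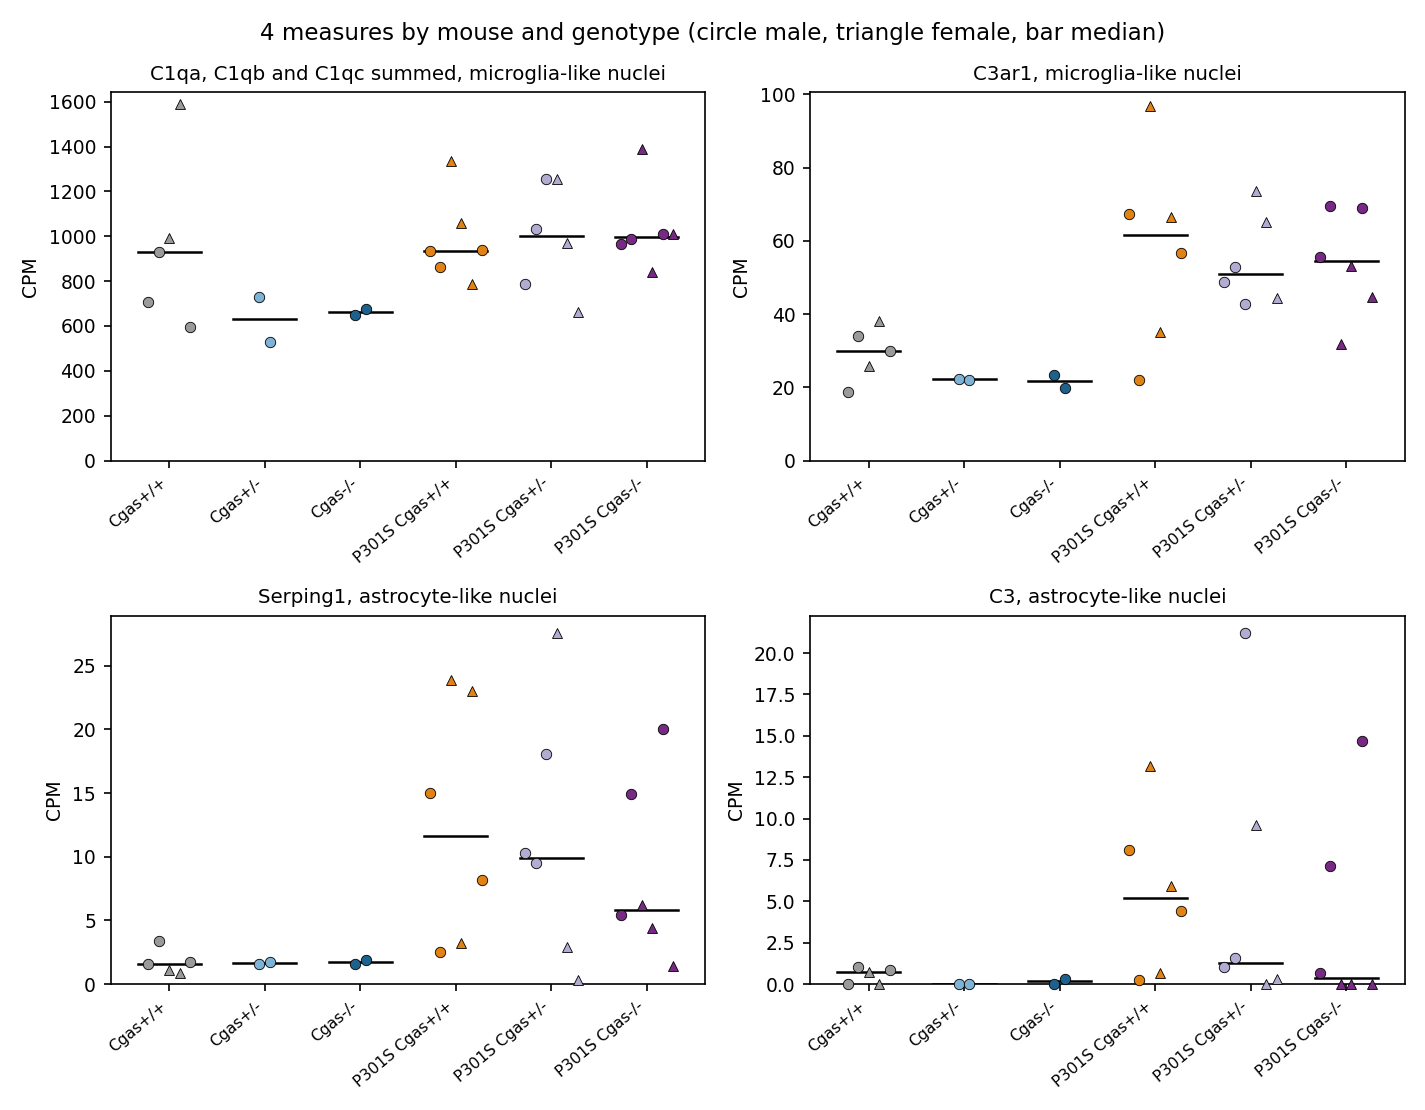
Summed C1q and C3ar1 in microglia-like nuclei and Serping1 and C3 in astrocyte-like nuclei, in CPM (linear axes) by mouse for the 6 genotype groups, with circles for males, triangles for females and bars at the median. C3ar1 is above every mouse without P301S in 15 of 18 P301S mice, Serping1 in 13 and C3 in 10, whereas summed C1q of P301S mice overlaps that of Cgas+/+ mice and the 4 Cgas+/- and Cgas-/- mice lie at 529 to 731 CPM, at its lower end.

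The C1q chains did not differ between P301S Cgas+/+ and Cgas+/+ mice in microglia-like nuclei beyond their spread. C1qa was at 299, 351, 347, 656 and 229.6 CPM in the Cgas+/+ mice, 194 and 141 CPM in the Cgas+/- mice and 206 and 262 CPM in the Cgas-/- mice. In the 3 P301S groups it ranged from 223 to 573 CPM with medians of 364, 354 and 387 CPM. The Cgas+/+ and P301S ranges overlapped, and the mice with fewer Cgas copies and no transgene lay at the lower end.

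The tau differences were -0.02 ± 0.23 (SE) for C1qa, 0.04 ± 0.19 for C1qb and 0.11 ± 0.21 for C1qc on the log2 scale, with edgeR adjusted p of 0.987, 0.952 and 0.852. Without Cgas+/+ replicate 4, at 656 CPM, that of C1qa was 0.25, and without P301S Cgas+/+ replicate 3 they were -0.14, -0.03 and 0.08. The P301S differences, which take in the Cgas+/- and Cgas-/- mice, were 0.52 ± 0.17 for C1qa (adjusted p = 0.053), 0.34 ± 0.14 for C1qb (adjusted p = 0.122) and 0.27 ± 0.16 for C1qc (adjusted p = 0.302). C1qa was called with DESeq2 (0.52), without the filter on low counts (0.58), without sex as a covariate (0.62) and in 7 of the 27 fits that left out 1 library. These were without Cgas+/+ replicate 4 (0.65), P301S Cgas+/+ replicate 2 or 3, P301S Cgas+/- replicate 1, 5 or 6 or P301S Cgas-/- replicate 4 (0.51 to 0.58). C1qb was called without Cgas+/+ replicate 4 (0.44) and with no filter (0.39). Within version 3.0.2 C1qa averaged 338 ± 76.8 CPM in P301S and 242 ± 76.7 CPM in the other mice, and within version 3.1.0 393 ± 98.0 and 411 ± 220 CPM. Within version 3.0.2 the 2 Cgas+/+ mice, at 299 and 351 CPM, lay above the 4 Cgas+/- and Cgas-/- mice, at 141 to 262 CPM, and the 3 mice without P301S of version 3.1.0 were all Cgas+/+. With version as a covariate the C1qa difference was 0.49 and was not called.

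Deletion of Cgas in P301S mice moved C1qa by 0.04 ± 0.21, C1qb by 0.10 ± 0.18 and C1qc by 0.00 ± 0.19 on the log2 scale in microglia-like nuclei. Summed C1q was 986 ± 193 CPM in P301S Cgas+/+, 994 ± 241 CPM in P301S Cgas+/- and 1034 ± 185 CPM in P301S Cgas-/- mice (SD, n = 6 each). After thinning, C1qa was found in 29.2% of microglia-like nuclei in both Cgas+/+ and P301S Cgas+/+ mice and in 29.5% in P301S Cgas-/- mice. The 3 deletion tests of C1q shares gave exact permutation p of 0.266 to 0.948, where the design allows 0.00216.

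Outside microglia-like nuclei the C1q chains were at low levels, and they rose with P301S in excitatory neuron-like nuclei. In excitatory neuron-like nuclei C1qa was at 0.276, 0.453, 0.456, 0.336 and 0.594 CPM in the Cgas+/+ mice, 0.312 and 0.255 CPM in the Cgas+/- mice and 0.603 and 0.307 CPM in the Cgas-/- mice. It ranged from 0.563 to 2.18 CPM (median 1.43) in P301S Cgas+/+, from 0.456 to 1.34 CPM (median 1.04) in P301S Cgas+/- and from 0.600 to 1.75 CPM (median 1.03) in P301S Cgas-/- mice. Of 18 P301S mice, 14 lay above every mouse without P301S for C1qa, 16 for C1qb and 12 for C1qc.

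The P301S differences in excitatory neuron-like nuclei were 1.60 ± 0.30 (SE) for C1qa (edgeR adjusted p = 0.0113), 1.54 ± 0.37 for C1qb (adjusted p = 0.032) and 1.33 ± 0.32 for C1qc (adjusted p = 0.032). Without P301S Cgas+/+ replicate 3 they were 1.59, 1.55 and 1.33. The call of C1qa was lost without Cgas+/- replicate 2 or either Cgas-/- mouse. Those of C1qb and C1qc were lost without any 1 of the 4 Cgas+/- and Cgas-/- mice or without P301S Cgas+/- replicate 3, that of C1qb also without P301S Cgas+/+ replicate 1, and that of C1qc also without P301S Cgas-/- replicate 2 or 5. Both were lost with the software version as a covariate (1.38 and 1.14), and with predicted doublets kept C1qb had a difference of 0.87 and was not called. Within version 3.0.2 C1qa averaged 1.23 ± 0.477 CPM in P301S and 0.368 ± 0.134 CPM in the other mice, and within version 3.1.0 1.11 ± 0.566 and 0.462 ± 0.129 CPM. In the tau comparison C1qa had a difference of 1.78 ± 0.38 (adjusted p = 0.286), C1qb 1.73 ± 0.49 and C1qc 1.11 ± 0.40. The heterozygous comparison gave C1qa -0.73 ± 0.34 (adjusted p = 0.393).

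The proportions of the 3 chains among the C1q UMIs of each class were described without a test. C1qa, C1qb and C1qc made up 37.5%, 34.9% and 27.5% in microglia-like, 40.3%, 34.1% and 25.6% in oligodendrocyte-like and 44.0%, 30.1% and 26.0% in excitatory neuron-like nuclei (1356 UMIs). Farther from microglia-like nuclei were inhibitory neuron-like nuclei, with 45.8%, 31.1% and 23.1% of 251 UMIs, and OPC-like nuclei, with 42.9%, 36.4% and 20.7% of 140 UMIs. Summed over the 10 microglia markers, excitatory neuron-like nuclei held 25.0 to 45.2 CPM (median 28.7) in Cgas+/+ mice and 27.5 to 39.5 CPM (median 35.1) in P301S Cgas+/+ mice. The medians were 37.3 CPM in Cgas+/-, 34.9 CPM in Cgas-/-, 33.5 CPM in P301S Cgas+/- and 35.3 CPM in P301S Cgas-/- mice. The part of RNA from microglia in the C1q of neuron-like nuclei was not tested. In oligodendrocyte-like nuclei C1qc had a P301S difference of 1.57 ± 0.43 (adjusted p = 0.118) and C1qb of 1.17 ± 0.45 (adjusted p = 0.245), with medians of 1.18 CPM for C1qc in Cgas+/+ and 3.18 CPM in P301S Cgas+/+ mice. C1qa there had a tau difference of 0.94 ± 0.43 (adjusted p = 0.723). In inhibitory neuron-like nuclei C1qa had a P301S difference of 1.72 ± 0.57 (adjusted p = 0.361), or 1.36 to 2.87 over the 25 fits without 1 library that held it. In astrocyte-like nuclei C1qa had a P301S difference of 0.84 ± 0.39 (adjusted p = 0.255). None of these passed.

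P301S mice differed widely within each genotype. C4b in oligodendrocyte-like and astrocyte-like nuclei varied together with Serping1 and C3 of astrocyte-like nuclei from mouse to mouse. The relations of summed C1q with C4b did not pass after adjustment, nor did that of C3 in microglia-like with C4b in astrocyte-like nuclei. That adjustment was over 15 pairs, among them pairs with Itgam, which could not be measured, and none was made without those. Over the 18 P301S mice, on a log2(CPM + 1) scale, C4b in oligodendrocyte-like nuclei correlated with that of astrocyte-like nuclei at Pearson r = 0.904 (Spearman rho = 0.936, permutation p = 1e-05, the smallest that 100000 permutations can give, adjusted p = 0.00015 over 15 pairs). Without the 2 mice farthest from the median r was 0.862. It was 0.804 over the 6 mice of software version 3.0.2, 0.934 over the 12 of version 3.1.0 and 0.899 without P301S Cgas+/+ replicate 3. C4b in oligodendrocyte-like nuclei and C3 in microglia-like nuclei had r = 0.730 (rho = 0.683, permutation p = 0.00072, adjusted p = 0.0036), but 0.392 within version 3.0.2 and 0.839 within version 3.1.0. With C4b in astrocyte-like nuclei, C3 of microglia-like nuclei had r = 0.519 (permutation p = 0.0272, adjusted p = 0.0583), which did not pass. Summed C1q in microglia-like nuclei had r = 0.464 (rho = 0.385, permutation p = 0.0533) with C4b in oligodendrocyte-like nuclei. With C4b in astrocyte-like nuclei it had r = 0.521 (permutation p = 0.0255, adjusted p = 0.0583; rho = 0.385, permutation p = 0.115). That r was 0.226 without the 2 farthest mice, 0.775 and 0.561 within the 2 versions, and 0.480 without P301S Cgas+/+ replicate 3. Libraries are shared between all these measures, and so is the depth of each mouse.

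A further 18 pairs were chosen after the levels had been seen. C4b in oligodendrocyte-like nuclei and Serping1 in astrocyte-like nuclei had r = 0.958 (rho = 0.930, permutation p = 1e-05, again the smallest possible, adjusted p = 4.5e-05), with 0.942 without the 2 farthest mice, 0.913 and 0.977 within the 2 versions and 0.954 without P301S Cgas+/+ replicate 3. C3 in astrocyte-like nuclei had r = 0.874 (rho = 0.887) with C4b in oligodendrocyte-like nuclei. C3ar1 in microglia-like nuclei had a looser relation with it, r = 0.646 (rho = 0.608, permutation p = 0.00358, adjusted p = 0.00644), 0.970 and 0.537 within the versions, and 0.570 without the 2 farthest mice. C3ar1 and summed C1q, both in microglia-like nuclei, had r = 0.124 (permutation p = 0.626). The median UMIs per nucleus of a class, a measure of depth, had r = 0.541 with C4b in oligodendrocyte-like nuclei and 0.570 with Serping1 in astrocyte-like nuclei (adjusted permutation p = 0.0246 each), or 0.379 and 0.382 without the 2 farthest mice. Depth also had r = 0.531 with C4b in astrocyte-like nuclei and 0.532 with C3ar1 in microglia-like nuclei (adjusted permutation p = 0.0246 each). Those were 0.286 and 0.276 without the 2 farthest mice. The part of depth in the relations was not tested.

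**Figure D5:**
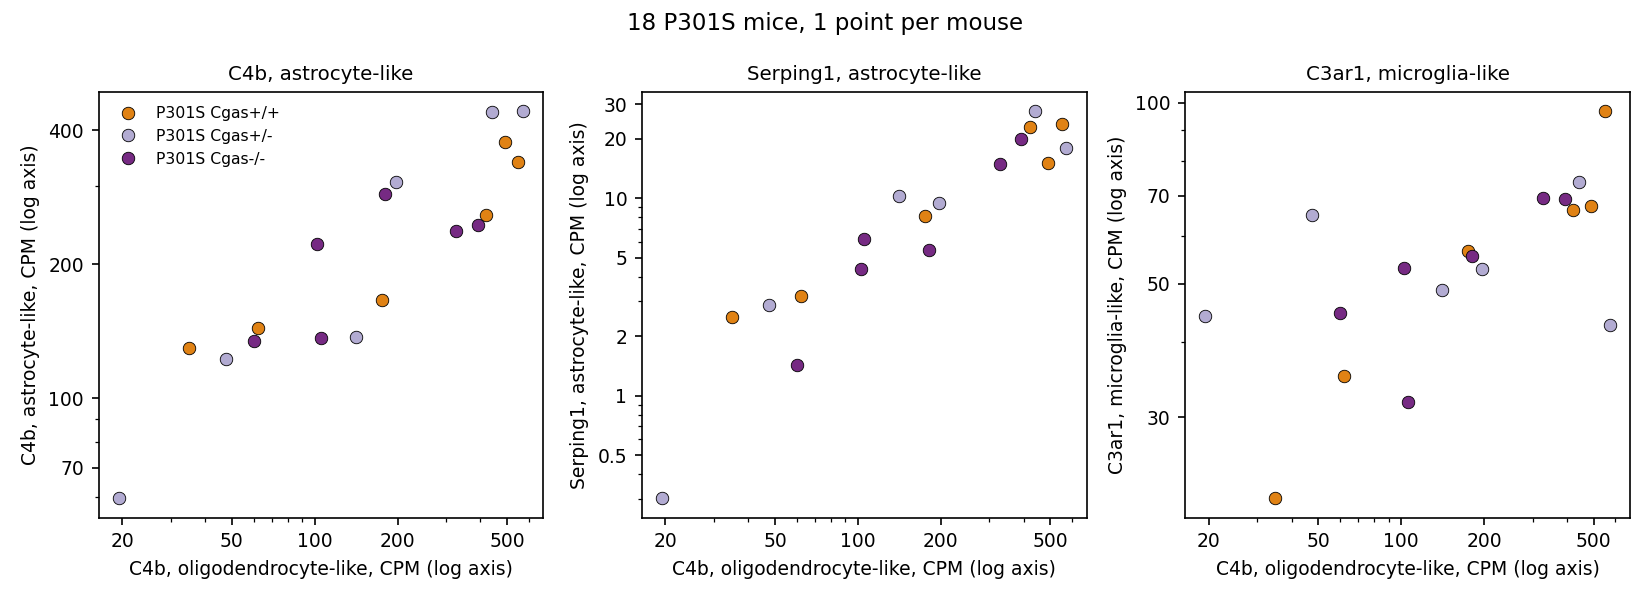
C4b in oligodendrocyte-like nuclei (x, CPM, log axis) against C4b and Serping1 in astrocyte-like and C3ar1 in microglia-like nuclei (y, CPM) for the 18 P301S mice, colored by genotype. C4b in astrocyte-like (r = 0.904) and Serping1 (r = 0.958) climb with C4b in oligodendrocyte-like nuclei, C3ar1 less closely (r = 0.646), and mice of the 3 genotypes are mixed along each line.

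Genes whose levels followed a member most closely over the 27 libraries, after group and sex were taken out, were found by Spearman's rho within the same class, as a description with no test. For C4b in oligodendrocyte-like nuclei they were Lgi4 (0.926), Stat3 (0.919), Tmed10 (0.910), Gm3448 (0.904) and Arhgef12 (0.869) among 13001 genes. For C4b in astrocyte-like nuclei they were Parp3 (0.877), Aspg (0.868), Gfap (0.860), Dennd3 (0.850) and Layn (0.846) among 13765 genes. Gfap encodes an intermediate filament of astrocytes and Stat3 a transcription factor downstream of cytokine receptors. For summed C1q in microglia-like nuclei they were Grn (0.821), Ndst2 (0.788), H2-D1 (0.770), Ctsa (0.763) and Skiv2l (0.755) among 9710 genes, where Grn encodes progranulin and Ctsa a lysosomal protease. For C3 in microglia-like nuclei, with 47 UMIs, they were Slamf7 (0.746), Fmnl2 (0.741), Lcorl (0.741), Ifi204 (0.727) and Shtn1 (0.724) among 9713 genes, and that sparse count makes the order weak. An interferon list of 20 genes was taken as the mean of their log2(CPM + 1) in microglia-like nuclei. This mean had r = 0.776 (rho = 0.664, permutation p = 0.00019, adjusted p = 0.00143) with C4b in oligodendrocyte-like nuclei over the 18 P301S mice, and 0.652 without the 2 farthest mice. It had r = 0.585 with C4b in astrocyte-like nuclei and 0.605 with C3 in microglia-like nuclei (adjusted permutation p = 0.0324 each), and 0.267 with summed C1q (adjusted permutation p = 0.328).

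The rest of the complement system was read from a list of 49 further genes, of which 48 were in the files. In microglia-like nuclei 15 were tested in the P301S comparison and 3 were called, 1 higher and 2 lower, where 11.5% of all genes were called, and 10 had an unadjusted p under 0.05, where 25.5% of all genes did. Across nuclei of the astrocyte-like (18 tested), oligodendrocyte-like (19), excitatory neuron-like (35) and inhibitory neuron-like (19) classes edgeR called 0, with 4, 3, 8 and 2 at an unadjusted p under 0.05, whereas DESeq2 called 1 in each of the first 3 (Cd59a, Masp1 and Masp1, with backgrounds of 5.16%, 1.48% and 6.32%) and 0 in the last. Of all genes, 17.2%, 13.2%, 18.9% and 7.46% had an unadjusted edgeR p under 0.05 in these classes. The list had a median log2 difference of -0.31 in microglia-like nuclei and between -0.12 and -0.0023 in the others, beside the medians over all genes given above. Itgax, the alpha chain of complement receptor 4 and a gene known from disease-associated microglia, rose by 4.28 ± 0.95 (SE) on the log2 scale (adjusted p = 0.00785). Its Cgas+/+ mice were at 0 to 4.68 CPM, the Cgas+/- mice at 3.73 and 11.1 CPM and the Cgas-/- mice at 0 and 3.68 CPM. The 3 P301S groups had medians of 64.0, 55.9 and 62.7 CPM, with lowest mice at 3.39, 3.16 and 12.2 CPM. The lowest P301S Cgas+/+ and P301S Cgas+/- mice thus lay among the mice without P301S. C5ar2, the other receptor for C5a, fell by 1.22 ± 0.37 (adjusted p = 0.0325), with a median of 11.8 CPM in Cgas+/+ mice, 6.03 CPM in P301S Cgas+/+ mice and ranges that overlapped. C5ar2 was at 17.4 and 33.6 CPM in the Cgas+/- mice and at 8.58 and 31.5 CPM in the Cgas-/- mice. The mean of the P301S Cgas-/- mice, 11.7 ± 5.27 CPM, lay within 1 SD of that of the Cgas+/+ mice, 12.7 ± 7.57 CPM. Csmd3, a membrane protein with complement control domains that neurons express strongly, fell by 0.95 ± 0.27 (adjusted p = 0.0279). It averaged 4901 ± 877 CPM in microglia-like nuclei of Cgas+/+ mice and 3186 ± 1680 CPM in those of P301S Cgas+/+ mice. In astrocyte-like nuclei of Cgas+/+ mice it averaged 242 ± 56.3 CPM. Summed excitatory neuron markers in the same microglia-like nuclei had a median of 641 CPM in Cgas+/+ mice against 549.9 CPM in P301S Cgas+/+ mice, and their part in the fall of Csmd3 was not tested. Masp1, a protease of the lectin pathway, had a P301S difference of 2.13 ± 0.57 in oligodendrocyte-like nuclei (adjusted p = 0.118), with a median of 8.82 CPM in Cgas+/+ mice against 44.8 CPM in P301S Cgas+/+ mice. It did not pass with edgeR and was called by DESeq2. Without P301S Cgas+/+ replicate 3 the differences in microglia-like nuclei were 4.24 for Itgax, -1.19 for C5ar2 and -0.93 for Csmd3, all still called. That of Masp1 in oligodendrocyte-like nuclei was 2.07.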

How the data were processed

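Nuclei were sequenced with a droplet 3′ kit, and the authors deposited, per library, a matrix of UMI counts per gene and barcode that was not normalized. Cell Ranger 3.1.0, Seurat 3.0 and mm10 are named in the submitters' processing notes. Reads over introns were counted too, so unspliced RNA is part of each value. File headers name software version 3.0.2 in 12 libraries, from males only, and 3.1.0 in 15.

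Barcodes with 200 to 4000 genes and at most 5% mitochondrial UMIs were used, and predicted doublets were removed with Scrublet at 0.8% per 1000 barcodes of the library (16429 of 221281). Clusters (scanpy 1.11.5, 2000 variable genes, 30 principal components, 15 neighbours, Leiden resolution 1.0) were named from marker lists, and classes are called -like for that reason. UMIs were summed per mouse and class. edgeR 4.0.16 in R 4.3.3 (quasi-likelihood, TMM, filterByExpr, robust, sex as covariate) was fitted to 4 groups (23 mice) for the tau, deletion and heterozygous comparisons and to all 6 groups (27 mice) for the P301S comparison and the interaction, with Benjamini-Hochberg adjustment over all genes tested and a threshold of 0.05. Code was tested on simulated data. DESeq2 1.42.0, no filter, no sex covariate, software version as a covariate, doublets kept, nuclei over the gene limit kept, nuclei with more UMIs of another class left out, and each library left out were the alternatives.

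Members were found by symbol alone, but the set of members and the other lists were chosen with earlier results of these data known. A member is named with its fold change where its unadjusted p was under 0.05 or in the tested class where its mean CPM was highest. Other complement genes were named at an unadjusted p under 0.05 and a mean of at least 5 CPM, at most 6 per class, and a few of those are shown. Shares of nuclei were taken after thinning to 1000 UMIs, leaving out shallower nuclei. Each library is a separate mouse by its label. Microglia-like nuclei numbered 218 to 1207 per library with 268120 to 1898380 UMIs, which limits precision most for the sparse members.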

Additional observations from a re-analysis of the deposited data

Results flagged for a closer look

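Among 44 groups of 4 to 10 mice in which a member's level was checked for a mouse far from the others, 3 mice stood out, and chance alone flags about 1 in 20 groups. C1qa in microglia-like nuclei was 656 CPM (224 UMIs) in Cgas+/+ replicate 4, and the next mouse of its group was at 351 CPM. C5ar1 in microglia-like nuclei was 28.3 CPM (23 UMIs) in P301S Cgas+/+ replicate 6, against 17.9 CPM in the next mouse. C1qc in microglia-like nuclei was 414 CPM (169 UMIs) in P301S Cgas-/- replicate 3, against 282 CPM in the next mouse.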

How the results depend on the processing

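Of 419 fold changes recomputed under 7 alternatives, 392 kept their direction and their side of the threshold, 10 reversed, 12 gained a call and 5 lost one. Most of the 419 had no call to lose, so the 392 say little of how stable the calls are. The lost calls were those of Serping1 in astrocyte-like nuclei and of C1qb and C1qc in excitatory neuron-like nuclei. No paired analysis was possible because the labels give no replicate numbers, so the numbers used here pair no mice. Members called in the P301S comparison numbered 1 in microglia-like, 1 in astrocyte-like and 3 in excitatory neuron-like nuclei. In microglia-like nuclei, where the main fit called 11.5% of all genes, they numbered 2 with DESeq2 (12.8% of all genes), 5 with no filter and 2 without sex. The 5 were C1qa, C1qb, C3, C3ar1 and C4b, of which C3 was at 0 UMIs in all 9 mice without P301S. In astrocyte-like nuclei, where the main fit called 2.27% of all genes, they numbered 3 with DESeq2 (5.16% of all genes), 0 with no filter, 2 with nuclei over the gene limit kept and 0 with software version as a covariate. In excitatory neuron-like nuclei they numbered 1 with that covariate. DESeq2 called 1 in oligodendrocyte-like nuclei, and 1 each in the tau comparison in astrocyte-like and excitatory neuron-like nuclei. The tau comparison gave 2 in microglia-like nuclei with no filter (C3ar1 and C4b). With each library left out in turn, calls in the P301S comparison ran from 1 to 3 in microglia-like, 0 to 3 in astrocyte-like and 0 to 3 in excitatory neuron-like nuclei, and in the tau comparison from 0 to 1 in both microglia-like and excitatory neuron-like nuclei. The share of all genes called is not given for these fits or for most of the alternatives. The counts therefore do not show whether members moved apart from other genes. The causes were not tested.

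Some signs reversed. The C1qa tau difference in microglia-like nuclei (-0.02) was 0.036 with no filter and 0.010 without sex, and its deletion difference (0.04) was -0.0019 without sex. The C1qc deletion difference (0.0020) was -0.0026 with DESeq2, -0.0049 with no filter, -0.0053 without sex, -0.0057 with nuclei over the gene limit and -0.0029 with the version covariate. In astrocyte-like nuclei the heterozygous difference of C4b was -0.012 with nuclei over the gene limit and that of C3 was 0.031 without sex. The C1qc deletion difference in shares was 0.058 percentage points without thinning. The relation of C4b in astrocyte-like nuclei with summed C1q (unadjusted p = 0.0255, not passed after adjustment) was r = 0.294 on residuals after group, with an unadjusted p over 0.05.

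With each library left out, log2 differences in microglia-like nuclei ran from -0.070 to 0.15 (C1qa deletion), -0.15 to 0.11 (C1qa heterozygous), -0.14 to 0.25 (C1qa tau), -0.023 to 0.20 (C1qb heterozygous), -0.065 to 0.25 (C1qb tau), -0.11 to 0.080 (C1qc deletion), -0.11 to 0.13 (C1qc heterozygous), -0.0078 to 0.32 (C1qc tau), -0.25 to 0.084 (C3ar1 deletion), -0.24 to 0.087 (C3ar1 heterozygous), -0.35 to 0.10 (C5ar1 P301S), -0.18 to 0.21 (C5ar1 deletion), -0.41 to 0.06 (C5ar1 heterozygous) and -0.058 to 0.30 (C5ar1 tau). In astrocyte-like nuclei the heterozygous differences ran from -1.02 to 0.39 (C3), -0.32 to 0.26 (C4b) and -1.002 to 0.17 (Serping1). The deletion differences there ran from -1.64 to -0.23 (C3) and -0.95 to -0.22 (Serping1). The heterozygous difference of C1qa in excitatory neuron-like nuclei ran from -0.94 to -0.48. Differences in shares ran from -1.70 to 2.76 points (C1qa deletion), -2.53 to 3.68 (C1qa tau), -0.55 to 3.93 (C1qb tau), -2.10 to 0.74 (C1qc deletion), -0.039 to 0.048 (C3 deletion), 0.14 to 0.23 (C3 tau), 13.8 to 20.4 (C4b in oligodendrocyte-like nuclei, tau) and -9.62 to -3.00 (C4b in oligodendrocyte-like nuclei, deletion). Without P301S Cgas+/+ replicate 3, left out after the data were seen, r was -0.056 for C3ar1 with summed C1q, and for C4b in astrocyte-like nuclei 0.478 with C3, 0.477 with C3ar1 and 0.480 with summed C1q, all 3 in microglia-like nuclei, and 0.715 with C3 in astrocyte-like nuclei. For the 3 relations with microglia-like nuclei the unadjusted permutation p was under 0.05 with all P301S mice and no longer was without that library.

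Depth limits the sparse members, of which Itgam had 2, C3 499 and C5ar1 713 UMIs in all nuclei, and the P301S comparison takes in only 2 Cgas+/- and 2 Cgas-/- mice.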
